A study of Mus musculus with 9 samples.

Results

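At birth, 521 of 10102 measured genes (5.16%) in the sensory epithelium of the mouse utricle stood outside both neighbouring ages. All 3 libraries of the day of birth were above the 6 libraries of the other ages for 317 genes (3.14%) and below them for 204 (2.02%), which is the rule that chose them. The comparison set 3 libraries from the day of birth (P0) against 3 from embryonic day 17.5 (E17.5) and 3 from postnatal day 9 (P9). All libraries came from Swiss Webster mice, with no allele or agent named in the labels. Epithelia were dissected from the utricle and their total RNA was sequenced. Whether each library is a separate animal or a pool is not stated in the labels, so the p-values measure library-to-library spread alone, and that spread may be technical. Values are RPKM, read numbers scaled to gene length and library size, so levels of different genes can be compared per length.

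The utricle senses gravity and linear acceleration. Its epithelium holds hair cells, each with a bundle of stereocilia that opens ion channels when deflected, among supporting cells that isolate and nourish them. A gelatinous otolithic membrane loaded with calcium carbonate crystals, the otoconia, lies on the bundles. In the mouse utricle hair cells are still being added around birth, while the crystals are seeded before it. Glycolysis, which splits glucose to pyruvate and lactate, is one of the fuel pathways of such cells.

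The epithelium's own markers were present in every library. Myo7a, which encodes an unconventional myosin of hair cells, read 37.8, 39.4 and 37.2 RPKM at E17.5, 54.7, 40.1 and 53.2 at P0 and 55.8, 59.4 and 66.2 at P9, and the 51 measured bundle genes together summed to 1868 to 1877 RPKM at E17.5, 2135 to 2474 at P0 and 2632 to 2647 at P9. Libraries held between 53365510 and 64417934 alignments. The share of summed RPKM in ribosomal protein genes was 9.72 to 11.4% at P0, 10.3 to 11.4% at E17.5 and 5.54 to 5.68% at P9, and mitochondrially encoded genes took 14.5 to 16.0% at P0 and 11.3 to 15.9% at the other ages. In bulk tissue, fewer cells of a type and less RNA per cell cannot be told apart.

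The difference tested was P0 minus the average of E17.5 and P9 on log2(RPKM + 1), a scale that understates changes of genes with low values. By limma with Benjamini-Hochberg adjustment over all genes, 984 genes were called higher at P0 (9.74% of those tested) and 729 lower (7.22%), at an adjusted p under 0.05. This average also calls genes that change in one direction with age but at an uneven rate. The P0 mean lay outside both other means for 544 of the 984 and for 320 of the 729, and between them for the rest. Called genes whose P0 libraries all lay above the other 6 numbered 255 (2.52%), and those below numbered 137 (1.36%). These genes are called P0-high and P0-low here. The rule and the test use the same values, so the test is no independent support for the choice of genes. A stricter reading, P0 called against E17.5 and against P9 separately in the same direction, gave 165 genes higher (1.63%) and 70 lower (0.693%). Separately, 15.4% of genes were called higher and 13.5% lower at P0 than at E17.5, and 28.5% and 23% than at P9. Of the 165 and 70, 153 and 66 also met the rule of no overlap. Leaving out P0 replicate 3 gave 582 genes higher and 396 lower in the contrast, and leaving out P0 replicate 2 gave 648 higher. The 165 became 96 without P0 replicate 3, 97 without E17.5 replicate 2 and 96 without E17.5 replicate 3, and the 70 became 35 without P0 replicate 3 and 37 without E17.5 replicate 2.

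Most differences were small. For each P0-high gene the smaller of its 2 ratios of mean RPKM, P0 over E17.5 and P0 over P9, had a median of 1.25 and reached 1.5 in 30 genes and 2 in 6. For the P0-low genes, with P0 as the divisor, the median was 1.24, with 15 genes at 1.5 or more and 4 at 2 or more. At the edge of the rule, Fbn1, a microfibril gene, had its lowest P0 library at 6.698 RPKM and its highest other library at 6.695. Mtss1l missed the rule, with 40.93 against 40.96. On the low side Dnm1l, with its highest P0 library at 28.95 and its lowest other library at 28.96, fell inside, and Tial1, with 31.57 against 31.53, fell outside.

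**Figure D1:**
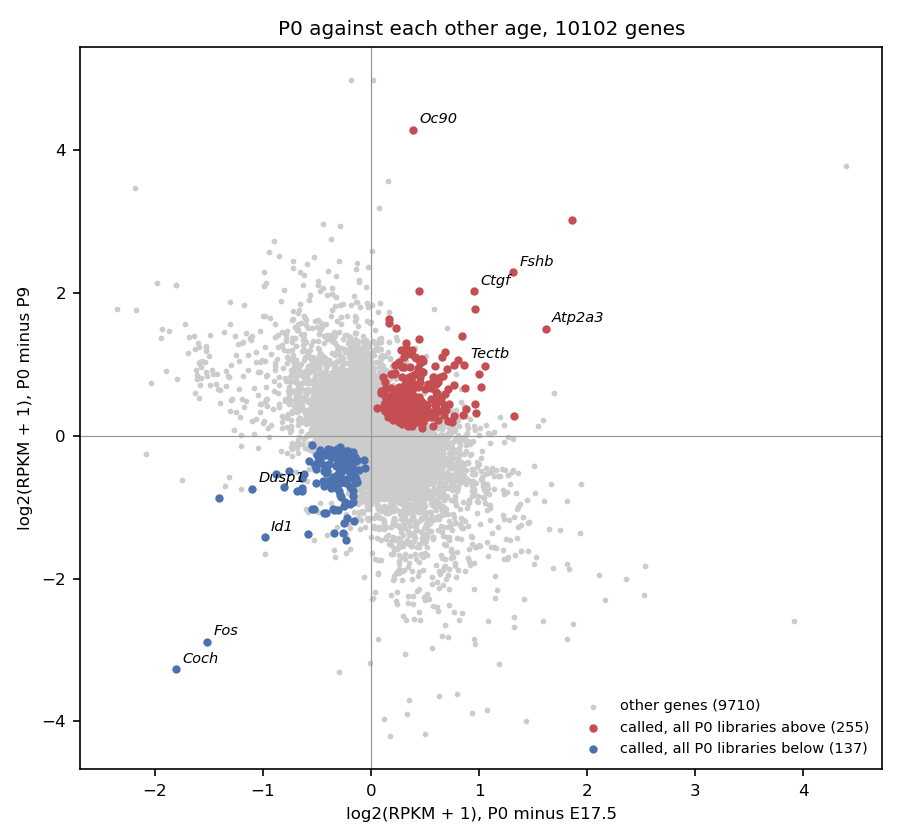
Each point is 1 of 10102 genes, placed by its log2(RPKM + 1) difference P0 minus E17.5 (horizontal) and P0 minus P9 (vertical). The 2 differences share the P0 libraries. The 255 P0-high genes (red) lie in the upper right and the 137 P0-low genes (blue) in the lower left, where Fos and Coch are farthest from the centre.

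Several P0-low genes belong to small groups of glycolysis, hypoxia and immediate early genes, and the DNA before their start sites is shown here for its short recognition letters. The windows hold up to 250 bases upstream of 1 RefSeq start site of each gene (build GRCm38.p6), given on the gene's strand and trimmed where they met an exon of the GENCODE vM21 annotation. Capitals mark ACGTG on either strand, the core read by hypoxia-inducible factors and by circadian and other E-box proteins, and TGACGTCA, the cyclic AMP response element.
Ldha (chr7:46845554-46845803, plus strand): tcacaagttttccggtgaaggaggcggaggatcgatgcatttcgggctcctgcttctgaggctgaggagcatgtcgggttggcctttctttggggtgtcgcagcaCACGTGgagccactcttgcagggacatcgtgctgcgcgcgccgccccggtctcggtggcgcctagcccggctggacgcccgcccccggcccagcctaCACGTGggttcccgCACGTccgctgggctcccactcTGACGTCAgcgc
Slc16a3 (chr11:120948817-120949052, plus strand): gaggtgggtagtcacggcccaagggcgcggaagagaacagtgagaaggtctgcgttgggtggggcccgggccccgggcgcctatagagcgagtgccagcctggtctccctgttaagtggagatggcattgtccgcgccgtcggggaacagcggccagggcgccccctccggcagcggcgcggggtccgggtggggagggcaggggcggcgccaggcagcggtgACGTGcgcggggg
P4ha2 (chr11:54100674-54100923, plus strand): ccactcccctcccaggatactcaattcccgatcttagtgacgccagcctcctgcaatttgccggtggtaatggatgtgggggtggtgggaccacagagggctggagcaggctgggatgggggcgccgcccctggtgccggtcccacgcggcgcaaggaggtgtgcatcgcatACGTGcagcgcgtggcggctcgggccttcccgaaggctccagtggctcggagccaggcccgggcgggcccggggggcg
Dusp1 (chr17:26508520-26508722, minus strand): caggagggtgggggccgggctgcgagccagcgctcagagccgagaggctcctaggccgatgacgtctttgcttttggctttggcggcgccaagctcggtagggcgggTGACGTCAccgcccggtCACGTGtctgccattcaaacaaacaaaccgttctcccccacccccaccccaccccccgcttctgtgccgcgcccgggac
Ppp1r15a (chr7:45526269-45526329, minus strand): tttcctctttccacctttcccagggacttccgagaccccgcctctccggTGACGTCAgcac

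These windows were picked because they hold matches, so they say nothing of how common the motifs are. Among the 204 genes with all P0 libraries below the others, 164 had a RefSeq window, and TGACGTCA was found in 11 of them (6.71%). It was in 2.97% of the windows of all 7295 measured genes that had one, in 2.55% of those of the genes above, and in 1.62% of all 27025 RefSeq promoters. ACGTG was in 39 of the 164 (23.8%), in 22.2% of measured genes and in 16.6% of all promoters. The CArG box, read by serum response factor, was in 3 of the 164 (1.83%) and in 1.27% of measured genes. The heat shock element was in 1 of the 164 (0.61%) and in 0.384% of measured genes. Counts use the whole 250 bases and both strands, and a match is a description of the letters only.

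Several genes that encode regulators of hair cell identity were highest at birth. Of 22 measured members of that list, 13 were called higher in the contrast and 0 lower (9.74% and 7.22% over all genes). The median log2 difference was 0.41 against 0.01 over all genes, and 7 members were P0-high: Atoh1, Pou4f3, Gfi1, Barhl1, Nhlh1, Dll1 and Sox2. Against P9 alone the median was 0.58, with 18 called higher and 0 lower (28.5% and 23% over all genes). Against E17.5 alone the median was 0.08, with 5 higher and 3 lower (15.4% and 13.5% over all genes). Pou4f3, a POU factor needed for hair cells to survive, read 93.5, 86.3 and 77 RPKM at E17.5, 116, 123 and 119 at P0 and 86, 83.3 and 89.3 at P9. The P0 libraries were close together and above all others, with a log2 contrast of 0.47 ± 0.08 (SE; limma adjusted p = 0.00219). Gfi1, a zinc finger repressor that acts after it, read 65.3, 66.8 and 60.2 RPKM at E17.5, 97.9, 104 and 107 at P0 and 76.8, 81 and 83 at P9, with P9 also above E17.5. Nhlh1, a basic helix-loop-helix gene, read 25, 23 and 23.3 RPKM at E17.5, 30.8, 30.2 and 33 at P0 and 14.6, 11 and 13.9 at P9, with P9 lowest and no overlap between ages.

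Atoh1, the factor that starts hair cell differentiation, read 33.7, 37.3 and 32.4 RPKM at E17.5, 38, 39.4 and 44.9 at P0 and 12.4, 13.7 and 14.9 at P9. Its P0 libraries lay just above those of E17.5, with an adjusted p of 0.0878 by limma for that difference, and far above those of P9 (2.71e-07). Barhl1 had the same shape, with 27.3, 23.8 and 25.6 RPKM at E17.5, 29.5, 28.3 and 39.4 at P0 and 15.8, 13.3 and 13.6 at P9. For Sox2, the prosensory and supporting cell factor, the values were 126, 104 and 105 RPKM at E17.5, 126, 141 and 134 at P0 and 103, 87.8 and 88.5 at P9, and the lowest P0 library was barely above the highest of E17.5. Dll1, the Notch ligand shown by young hair cells, read 15.7, 13.8 and 14.4 RPKM at E17.5, 18.9, 17.5 and 21.8 at P0 and 15.3, 14.7 and 17.4 at P9.

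Pou4f3, Gfi1, Nhlh1 and Dll1, 4 of these 7 regulators, were called against both ages. Dll1 was called in the contrast under 14 of 18 alternatives. Settings that lost its call included leaving out E17.5 replicate 2, P0 replicate 1 or P0 replicate 3 (limma adjusted p up to 0.12). Sox2 lost its call without P0 replicate 3 (0.057). The other 6 regulators called in the contrast, Lhx3, Hes6, Dll3, Sox4, Sox11 and Emx2, had P0 libraries that overlapped another age. Of these, Lhx3 was called under 15 of 18 alternatives and Emx2 under 13. Hes6 was called under all 18, and Dll3 under all 17 that kept it. The 13 regulators called higher became 9 without P0 replicate 3 and 17 with array weights. Of the Notch list, 8 of 30 measured members were called higher and 2 lower (9.74% and 7.22% over all genes). Heyl, a Notch target, read 31.8, 33.3 and 35.2 RPKM at E17.5, 48.3, 46.1 and 46.5 at P0 and 25.8, 22.3 and 18.9 at P9, with the 3 ages apart and P0 on top.

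**Figure D2:**
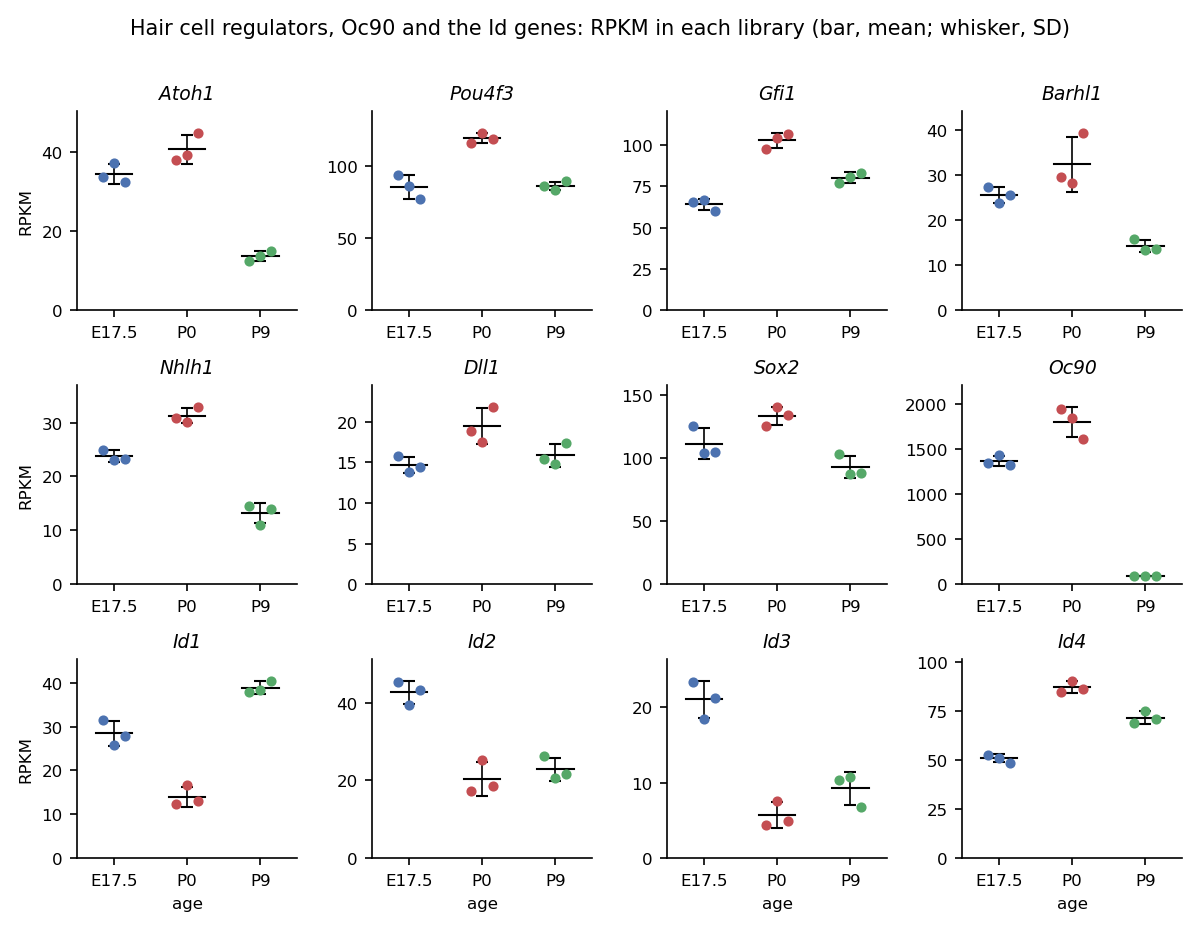
RPKM in each of the 9 libraries (points), with the mean (bar) and SD (whisker) by age, for 7 regulators of hair cell identity, the otoconial gene Oc90 and the 4 Id genes. Pou4f3 and Gfi1 stand above both other ages, Atoh1 and Oc90 are far lower at P9, and Id4 is highest where Id1 is lowest.

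Of 51 measured hair bundle genes, the P0 mean was above both other means for 12 (23.5%, against 17.9% of all genes) and below both for 2 (3.92%, against 15.1%). In the contrast, 15 were called higher and 3 lower (9.74% and 7.22% over all genes), with a median log2 difference of 0.06. The P0-high members were 5 (Grxcr2, Cib2, Pls1, Tmie and Lhfpl2). Without P0 replicate 3, 7 were called higher. Grxcr2, a stereocilia protein needed for orderly bundles, read 55.5, 55.7 and 52.7 RPKM at E17.5, 94.3, 93.8 and 93.3 at P0 and 60.2, 56.4 and 55 at P9. The P0 libraries were nearly equal and far above the rest, 1.72-fold the E17.5 mean and 1.64-fold the P9 mean (limma adjusted p of the contrast = 6.16e-05). Cib2, a calcium-binding part of the transduction complex, read 75.5, 72.1 and 66.3 RPKM at E17.5, 87.4, 103 and 89.3 at P0 and 74.4, 67.7 and 63.7 at P9. Slc17a8, the vesicular glutamate transporter of hair cells, read 23.2, 29.9 and 27.1 RPKM at E17.5, 49.1, 57.6 and 53 at P0 and 38.9, 47.3 and 42 at P9, and its P9 level stayed above that of E17.5. Pls1, the actin bundler of stereocilia, read 87.1, 84.2 and 81.9 RPKM at E17.5, 103, 107 and 111 at P0 and 86.4, 87.8 and 98.7 at P9 and lost its call without E17.5 replicate 2 or P0 replicate 3 (adjusted p up to 0.0969). Tmie, another part of the transduction complex, was called against E17.5 (adjusted p by limma = 0.00203) and not against P9 (0.31), and lost its call in the contrast without E17.5 replicate 2 or any 1 P0 library (up to 0.0652).

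Part of the gene set for the extracellular cover of the epithelium peaked at birth. Of 23 measured otoconial and otolithic membrane genes, 8 were called higher and 1 lower (9.74% and 7.22% over all genes). All 5 P0-high members were called against both ages: Oc90, Tectb, Zpld1, Col9a1 and Emilin2. The median log2 difference was 0.18 over the list. Oc90, the main matrix protein of otoconia, read 1340.5, 1436 and 1325 RPKM at E17.5, 1946, 1840.4 and 1614 at P0 and 92, 93.8 and 87.6 at P9. The P0 mean was 1.32-fold that of E17.5 and 19.8-fold that of P9, so the gap to P9 made up most of its contrast. Tectb, beta-tectorin of the gelatinous membrane, read 399, 447 and 315 RPKM at E17.5, 769.9, 699.6 and 630.5 at P0 and 428, 335 and 299 at P9. E17.5 and P9 overlapped each other and P0 overlapped neither, at 1.81-fold and 1.98-fold their means.

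Zpld1, a zona pellucida protein of the sensory organs' gelatinous caps, read 24.1, 31.5 and 20.6 RPKM at E17.5, 44.6, 53.1 and 34.1 at P0 and 20.1, 21.1 and 22.8 at P9. Emilin2, an elastic matrix glycoprotein, read 5.86, 6.58 and 5.01 RPKM at E17.5, 9.96, 12.4 and 11.9 at P0 and 9.09, 5.94 and 5.71 at P9, with 1 P9 library close to the lowest P0 library. Col9a1, a chain of type IX collagen, read 304, 255 and 248 RPKM at E17.5, 332, 396 and 331 at P0 and 232, 219 and 181 at P9. Otol1 and Tecta, other proteins of this cover, were not called, with an adjusted p by limma of 0.297 and 0.136. Otog and Otogl, also on the list, had negative log2 contrasts under all 18 alternatives, from -0.27 to -0.04 and from -0.40 to -0.21. Otogl was called under 5 of the 18 and Otog under 0. Among the 39 collagen and matrix genes, 15 were called higher and 4 lower (9.74% and 7.22% over all genes), and Col9a1, Col6a2, Fbn1 and Eln were P0-high. Col6a2 lost its call without E17.5 replicate 3, P0 replicate 2, P0 replicate 3 or P9 replicate 2 and with quantile normalization (limma adjusted p up to 0.129).

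**Figure D3:**
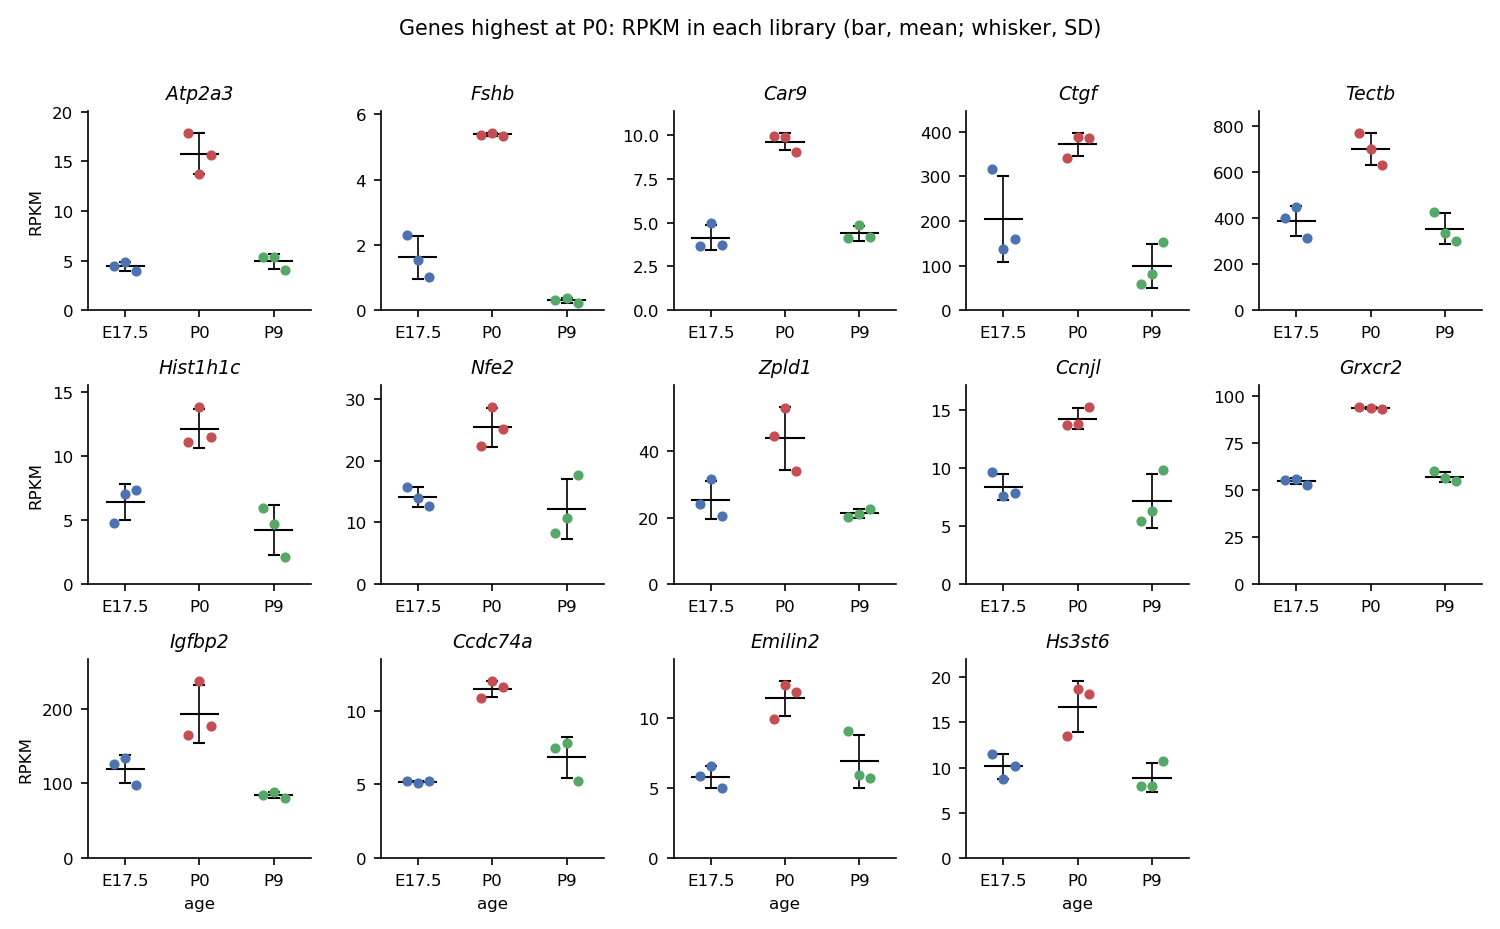
RPKM in each library (points), with mean (bar) and SD (whisker) by age, for 14 P0-high genes with the largest smaller difference from the other 2 ages. Atp2a3, Fshb and Car9 show the widest gap between P0 and both other ages, while Ctgf varies most between E17.5 libraries. Fshb and Car9 reached 5 RPKM, the floor for measured genes, at P0 only.

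Outside those lists, the widest peaks belonged to single genes. Atp2a3, a calcium pump of the endoplasmic reticulum (SERCA3), read 4.48, 4.88 and 3.98 RPKM at E17.5, 17.9, 13.8 and 15.6 at P0 and 5.33, 5.39 and 4.07 at P9. E17.5 and P9 overlapped and P0 was 3.54-fold and 3.2-fold their means (log2 contrast 1.56 ± 0.10 SE, limma adjusted p = 1e-05). Fshb, the beta subunit of a pituitary hormone, read 2.3, 1.54 and 1.01 RPKM at E17.5, 5.38, 5.43 and 5.34 at P0 and 0.308, 0.376 and 0.223 at P9. Its 3 P0 values were nearly equal, and the 3 ages did not overlap, with P9 lowest. Only its P0 libraries reached 5 RPKM, the floor for measured genes, so its inclusion rests on P0.

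Ctgf, a secreted matricellular protein and a target of YAP, read 315, 137 and 160.2 RPKM at E17.5, 342, 387 and 386 at P0 and 59.3, 81.4 and 154 at P9. The P0 libraries were above the rest by a narrow margin, since E17.5 replicate 1 was close to them, and the adjusted p by limma was 0.0494 against E17.5 and 0.000372 against P9. Nfe2, a basic leucine zipper factor, read 15.8, 14 and 12.6 RPKM at E17.5, 22.4, 28.8 and 25.1 at P0 and 8.34, 10.7 and 17.6 at P9, and Hist1h1c, a linker histone, read 4.8, 7.08 and 7.39 RPKM at E17.5, 11.1, 13.9 and 11.5 at P0 and 5.95, 4.67 and 2.11 at P9. In both, the P0 libraries stood clear of the others. The other named P0-high genes were Ccnjl, a cyclin relative, Ccdc74a, and Hs3st6, a heparan sulphate sulphotransferase. Their P0 means were 14.2 ± 0.899, 11.5 ± 0.555 and 16.8 ± 2.87 RPKM (SD, n = 3), without overlap with either other age. CR536618.1, a clone name rather than a gene symbol, had a larger difference and is not described further.

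Among growth factor genes, the FGF and Wnt lists had higher calls only in the contrast with the average of both ages, and calls both ways against single ages. Igfbp2, an insulin-like growth factor binding protein, read 126, 134 and 97.3 RPKM at E17.5, 165, 237 and 177 at P0 and 84.1, 88.6 and 80.5 at P9, with all 3 ages separate and P9 lowest. Igfbp4, another binding protein, read 101, 89.8 and 81.5 RPKM at E17.5, 106, 153 and 116 at P0 and 97.1, 90.3 and 68.5 at P9, and lost its call without any 1 of E17.5 replicates 2 and 3 or P0 replicates 2 and 3 (limma adjusted p up to 0.114). Of 17 measured insulin-like growth factor genes, 5 were called higher and 3 lower in the contrast (9.74% and 7.22% over all genes). The 5 became 1 without P0 replicate 3, and the 3 became 1 without P0 replicate 1. Igfbp6, also a binding protein, was called lower under all 18 alternatives, with a log2 contrast from -1.78 to -1.20. Of 16 measured FGF pathway genes, 7 were called higher and 0 lower in the contrast by limma (9.74% and 7.22% over all genes). Against E17.5 alone 1 was called higher and 6 lower (15.4% and 13.5% over all genes). Against P9 alone 12 were called higher and 1 lower (28.5% and 23% over all genes). With a pseudocount of 5, median ratio scaling or P9 replicate 2 left out, 1 was called lower in the contrast. Fgf10, an inner ear growth factor ligand, read 28.6, 30 and 27.3 RPKM at E17.5, 32.7, 34.9 and 33.2 at P0 and 15.7, 15 and 18.9 at P9, above both ages in every library but called only against P9 (adjusted p by limma = 5.21e-06, against 0.0907 for E17.5). Of 36 Wnt pathway genes, 11 were called higher and 0 lower in the contrast (9.74% and 7.22% over all genes), with 1 lower under quantile normalization or array weights. Against E17.5 alone 8 were called higher and 4 lower (15.4% and 13.5% over all genes), and against P9 alone 15 and 6 (28.5% and 23%). The receptor Fzd9 was the P0-high Wnt gene (6.38, 5.39 and 5.9 RPKM at E17.5, 7.39, 9.27 and 9.14 at P0 and 3.38, 3.62 and 3.67 at P9).

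Several genes of glycolysis dipped at birth. Of 18 measured glycolysis genes, 7 were called lower and 0 higher in the contrast (7.22% and 9.74% over all genes). The median log2 difference was -0.21, and 5 were P0-low (Pfkl, Tpi1, Eno1, Ldha and Slc16a3). Against E17.5 alone 5 were called higher and 4 lower (15.4% and 13.5% over all genes), with a median of -0.01. Against P9 alone 2 were called higher and 10 lower (28.5% and 23% over all genes), with a median of -0.43. The 18 genes summed to 2868 to 3519 RPKM at E17.5, 3001 to 3363 at P0 and 3183 to 3717 at P9, with P0 overlapping both other ages. Such a sum is weighted to the most abundant members, among them Gapdh. By gene, the P0 mean lay below both other means for 7 of the 18 (38.9%, against 15.1% of all genes). It lay above both for 2 (11.1%, against 17.9%). Of 48 oxidative phosphorylation genes and 23 sterol synthesis genes, 0 were called by limma in either direction, and at an unadjusted p under 0.05 1 oxidative phosphorylation gene was higher and 1 lower, and 2 sterol synthesis genes were higher and 1 lower. Array weights called 10 oxidative phosphorylation genes lower, and leaving out P0 replicate 2 called 3. Leaving out P9 replicate 1 called 3 sterol synthesis genes higher.

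Pfkl, the liver form of phosphofructokinase, read 27.7, 33.5 and 24.1 RPKM at E17.5, 17.5, 16 and 13.7 at P0 and 30.2, 28.4 and 21.7 at P9. Every P0 library was below every other, while E17.5 and P9 overlapped. Tpi1, triose phosphate isomerase, read 107, 133 and 91.8 RPKM at E17.5, 72.3, 66.7 and 63.5 at P0 and 117, 123 and 109 at P9, and Ldha, which makes lactate from pyruvate, read 124, 158 and 105 RPKM at E17.5, 80.6, 86.8 and 76.9 at P0 and 149, 150.5 and 121 at P9. For both, the spread within E17.5 was wide, yet its lowest library was above all of P0, and the E17.5 means were 1.63-fold and 1.58-fold those of P0.

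Slc16a3, the lactate exporter MCT4, read 2.79, 4.37 and 2.64 RPKM at E17.5, 1.76, 1.44 and 2.57 at P0 and 3.89, 6.78 and 4.3 at P9 and lost its call without P0 replicate 2 (limma adjusted p = 0.0582). Eno1, enolase, read 142, 162 and 118 RPKM at E17.5, 103, 95.2 and 93.8 at P0 and 133, 126 and 130.0 at P9, and the symbol Gm5506, an enolase copy, was also P0-low with 31.3, 34.1 and 23.4 RPKM at E17.5, 20.4, 22.6 and 21.2 at P0 and 32.4, 31.7 and 28 at P9. How reads shared by near-identical copies were counted is not given in the sources used here, and the enolase, Ldha and Tpi1 values are uncertain to that extent. Gapdh and Pgam1, other steps of the pathway, were not called. Gapdh read 1362, 1448 and 1236 RPKM at E17.5, 1402, 1566 and 1345 at P0 and 1442, 1174 and 1216 at P9, and Pgam1 read 130.3, 151 and 116 RPKM at E17.5, 139.7, 138 and 124 at P0 and 140.1, 136 and 124 at P9. The adjusted p of their contrasts by limma was 0.47 and 0.932. Hk1, called lower in the contrast, lay between the other ages at P0.

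**Figure D4:**
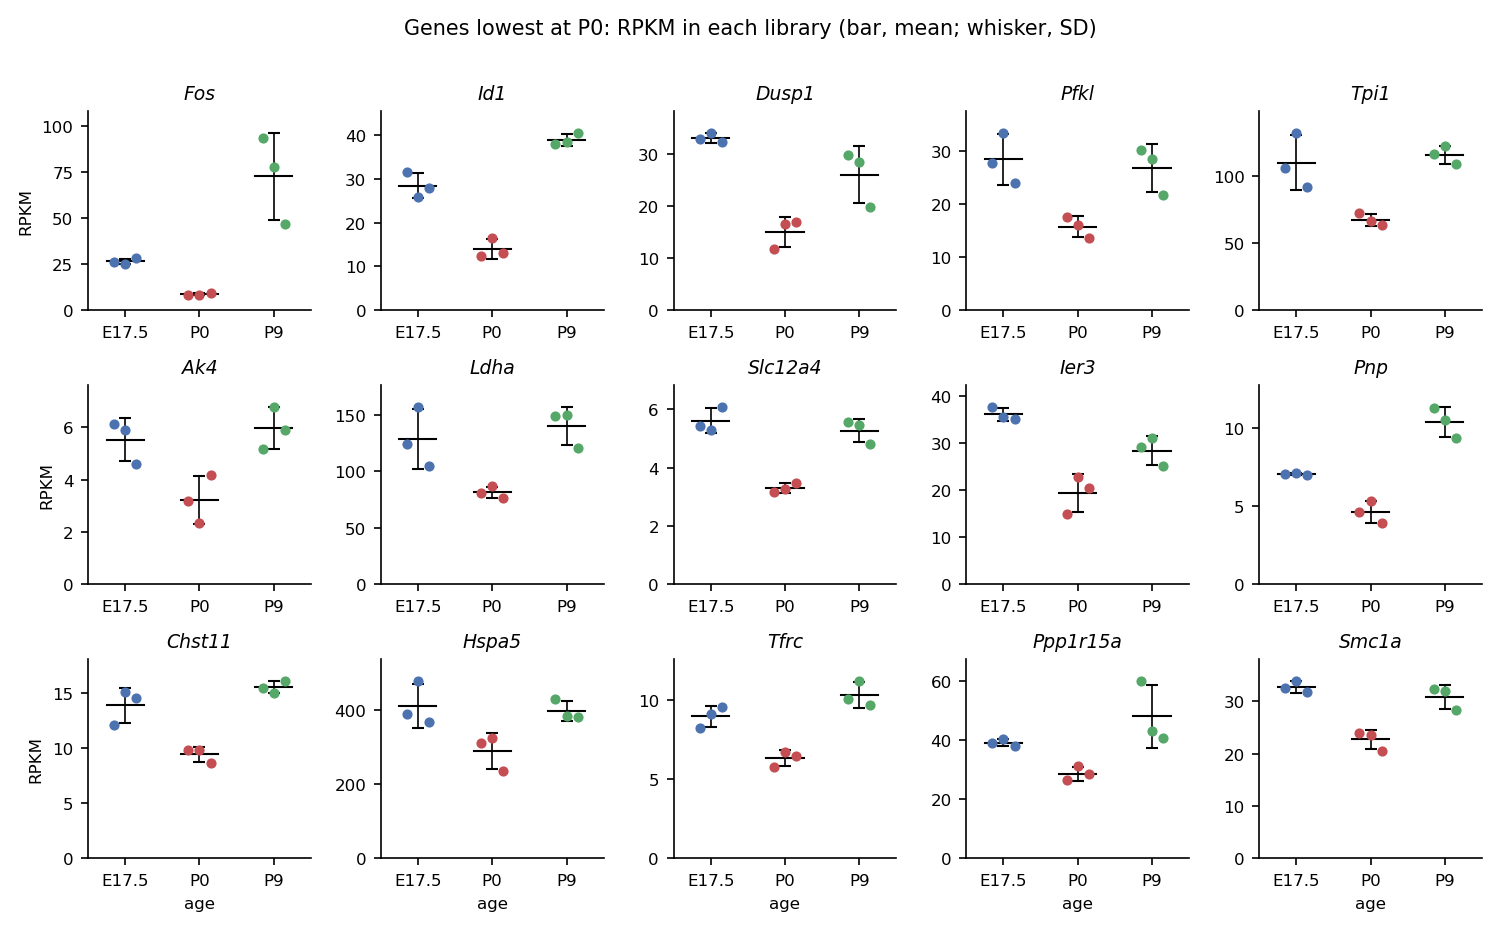
RPKM in each library (points), with mean (bar) and SD (whisker) by age, for the 15 P0-low genes with the largest smaller difference from the other 2 ages. Of these 15, Fos is the deepest dip, with P0 at 8.21 to 9.19 RPKM, and Pfkl, Tpi1, Ldha and Ak4 all show P0 below both other ages.

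Of 20 measured hypoxia genes, 2 were called higher, about the share of all genes (9.74%), and 6 lower (7.22% over all genes), with a median log2 difference of -0.22. The 6 became 3 without P0 replicate 1, 4 without E17.5 replicate 2 or P0 replicate 2, 3 with a mean of at least 10 RPKM and 10 with array weights. The 2 became 1 without E17.5 replicate 2, P0 replicate 2, P0 replicate 3 or P9 replicate 2. Car9, a surface carbonic anhydrase and classic target of hypoxia-inducible factor, read 3.68, 4.98 and 3.75 RPKM at E17.5, 9.93, 9.89 and 9.04 at P0 and 4.13, 4.88 and 4.17 at P9, at 2.33-fold and 2.19-fold the other means and without overlap (limma adjusted p = 7.48e-05). Only its P0 libraries reached 5 RPKM, the floor for measured genes, so its inclusion rests on P0. P4ha2, a collagen prolyl hydroxylase of the same list, went the other way and read 2.9, 3.02 and 2.63 RPKM at E17.5, 1.59, 1.45 and 1.66 at P0 and 4.21, 6.41 and 6.71 at P9. Ak4, a mitochondrial adenylate kinase, read 6.12, 5.88 and 4.59 RPKM at E17.5, 3.2, 2.34 and 4.16 at P0 and 5.19, 6.8 and 5.92 at P9. An ACGTG core was in the windows of 9 of the 16 hypoxia genes and 6 of the 18 glycolysis genes that had one, and the 3 in the Ldha window and the 1 in that of P4ha2 are shown above.

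Immediate early genes, which cells transcribe within minutes of a stimulus, included several of the deepest dips at birth. Of 35 measured, 12 were called lower and 1 higher (Ctgf) in the contrast. Over all genes, 7.22% were called lower and 9.74% higher. The list had a median log2 difference of -0.29, and 4 members were P0-low: Fos, Dusp1, Ier3 and Ppp1r15a. Without P0 replicate 1, 6 were called lower. Against E17.5 alone 17 of the 35 were called lower and 1 higher (13.5% and 15.4% over all genes), with a median log2 difference of -0.56. Against P9 alone 11 were called lower and 10 higher (23% and 28.5% over all genes), with a median of -0.0004. Fos, a component of the AP-1 dimer, read 26.1, 25.2 and 28.2 RPKM at E17.5, 8.21, 8.42 and 9.19 at P0 and 93.4, 77.9 and 46.8 at P9. The P0 libraries were far below all others, and the P9 libraries were highest and spread widely (log2 contrast -2.20 ± 0.16 SE, limma adjusted p = 1.69e-05). Dusp1, a phosphatase that ends MAP kinase signals, read 32.7, 34 and 32.3 RPKM at E17.5, 11.8, 16.5 and 17 at P0 and 29.8, 28.5 and 19.7 at P9, with P9 replicate 3 nearest to P0.

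Ier3, a stress-inducible survival gene, read 37.6, 35.5 and 35 RPKM at E17.5, 14.9, 22.6 and 20.5 at P0 and 29, 30.9 and 25 at P9, and Ppp1r15a, which restores translation after stress, read 38.9, 40.1 and 37.8 RPKM at E17.5, 26.3, 31 and 28.3 at P0 and 60, 43.1 and 40.5 at P9. Both had P0 below all others. The other 8 called lower had P0 libraries that overlapped another age. Egr1 read 16.2, 19.6 and 23.8 RPKM at E17.5, 17, 18.1 and 19.6 at P0 and 51.2, 39.2 and 31.4 at P9, level at E17.5 and P0, and Jun read 142, 177 and 173 RPKM at E17.5, 57.7, 76.9 and 68 at P0 and 91.9, 61.2 and 44.9 at P9, highest at E17.5 with P0 and P9 overlapping. Jun was called in the contrast under 11 of 18 alternatives. It lost its call when any 1 of 6 libraries was left out (E17.5 replicates 2 and 3, P0 replicates 1, 2 and 3, P9 replicate 2), with an adjusted p by limma up to 0.162. The 35 genes summed to 1674 to 1694 RPKM at E17.5, 1140.1 to 1429 at P0 and 983 to 1362 at P9. How long tissue was handled before lysis at each age is not given in the sources used here.

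Chaperone genes were called lower in 12 of 22 cases and higher in 0 (7.22% and 9.74% over all genes). Their median log2 difference was -0.45, but only Hspd1, Chordc1 and Stip1 were P0-low. The other 9 called lower were higher at P9 than at both earlier ages, among them Hspa1a, an inducible Hsp70, which read 2.58, 1.95 and 1.25 RPKM at E17.5, 2.44, 3.5 and 2.17 at P0 and 72.2, 39.1 and 35.8 at P9. Chordc1, a co-chaperone of Hsp90, read 18.5, 19 and 16.5 RPKM at E17.5, 14.7, 13 and 14.1 at P0 and 28.6, 29.6 and 30.3 at P9. Hspd1, the mitochondrial Hsp60, read 71.5, 71 and 59.2 RPKM at E17.5, 46.6, 56.9 and 45 at P0 and 67.2, 65.9 and 64.4 at P9 and lost its call without P0 replicate 3 (limma adjusted p = 0.0609). Of 28 measured genes of the unfolded protein and integrated stress responses, 5 were called lower (7.22% over all genes) and 1, Psat1, higher (9.74%). The 5 became 0 without P0 replicate 3 and 12 with array weights. Hspa5, the main chaperone of the endoplasmic reticulum and 1 of these 28, read 389, 479 and 366 RPKM at E17.5, 310.4, 324 and 234 at P0 and 428, 384 and 381 at P9, with P0 replicate 3 lowest, and without that library it was not called (0.117). Atf4, the factor of the integrated stress response, read 101, 149 and 135 RPKM at E17.5, 77.1, 92.5 and 84.9 at P0 and 126, 108 and 94.4 at P9, and lost its call without any 1 of E17.5 replicates 2 and 3, P0 replicates 1 and 3 or P9 replicate 2 (up to 0.113).

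The Id genes, which encode inhibitors of basic helix-loop-helix factors and answer to BMP signals, diverged. Id1 read 31.6, 25.8 and 27.9 RPKM at E17.5, 12.3, 16.6 and 13.1 at P0 and 37.9, 38.3 and 40.5 at P9, and its P0 libraries were well apart from both other ages (log2 contrast -1.20 ± 0.10 SE, limma adjusted p = 2.55e-05). Id4 went the opposite way, with 52.7, 51.1 and 48.7 RPKM at E17.5, 84.8, 90.6 and 86.1 at P0 and 68.7, 75.2 and 71.1 at P9, its P0 libraries being above all others. Id3 read 23.4, 18.4 and 21.3 RPKM at E17.5, 4.43, 7.62 and 4.99 at P0 and 10.3, 10.8 and 6.74 at P9 and was called lower than both ages although 1 P0 library was above P9 replicate 3. Id2 read 45.3, 39.4 and 43.3 RPKM at E17.5, 17.2, 25.3 and 18.5 at P0 and 26.2, 20.6 and 21.7 at P9 and was called against E17.5 only (adjusted p by limma = 0.000227, against 0.321 for P9). Of the 27 BMP and TGF-beta genes, 4 were called higher and 6 lower (9.74% and 7.22% over all genes).

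Markers of connective tissue beneath the epithelium were called in both directions at P0. Coch, cochlin of inner ear fibrocytes, read 5.35, 4.16 and 4.96 RPKM at E17.5, 0.239, 1.14 and 0.739 at P0 and 19.4, 11.7 and 14.9 at P9, and Col1a2, a chain of type I collagen, read 5.04, 4.25 and 3.62 RPKM at E17.5, 0.773, 1.22 and 0.984 at P0 and 2.57, 2.95 and 2.38 at P9. Coch was the deepest P0-low gene, with its E17.5 mean 6.82-fold and its P9 mean 21.7-fold that of P0. Otor, another gene of inner ear fibrocytes, read 12.5, 8.03 and 13.7 RPKM at E17.5, 0.989, 2.94 and 2.02 at P0 and 2.84, 3.05 and 1.63 at P9, low at both P0 and P9. The 16 mesenchyme genes measured of 29 listed summed to 193 to 226 RPKM at E17.5, 151 to 195 at P0 and 236 to 277 at P9, and 5 were called lower and 3 higher (Pdgfra, Mfap4 and Fbln1). Over all genes, 7.22% were called lower and 9.74% higher. Fbln1, a matrix glycoprotein, read 22.6, 20 and 22.6 RPKM at E17.5, 9.87, 12.9 and 11.2 at P0 and 0.782, 1.02 and 0.79 at P9, falling between the other ages (limma adjusted p = 0.00011). Without E17.5 replicate 1, 5 were called higher, and with a mean of at least 10 RPKM 1 was called lower. The part of connective tissue in the other results was not tested.

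Other cell types gave few P0 extremes. Vestibular dark cell genes had 1 called higher and 7 lower of 18 (9.74% and 7.22% over all genes), none of them outside both ages. Their sum was lowest at E17.5 and highest at P9 (559 to 608, 773 to 879 and 1436 to 1678 RPKM). The 10 Schwann cell genes measured summed to 229 to 261, 284 to 343 and 384 to 425 RPKM, and the 11 neuron genes to 277 to 302, 325 to 342 and 309 to 339 RPKM. Stmn3, a neuronal tubulin-binding gene, was P0-high at 12, 12.2 and 10.4 RPKM at E17.5, 16.9, 20.6 and 18.3 at P0 and 12.8, 12.5 and 12.7 at P9. Haemoglobin was low and variable, with Hba-a1 at 40.1, 17.8 and 29 RPKM at E17.5, 5.35, 14.9 and 14.1 at P0 and 9.76, 43.2 and 9.48 at P9, and the transferrin receptor Tfrc was P0-low at 8.24, 9.12 and 9.54 RPKM at E17.5, 5.78, 6.74 and 6.44 at P0 and 10.1, 11.2 and 9.67 at P9. Macrophage genes, 2 measured of 23, summed to 2.15 to 2.59, 15.3 to 30.3 and 89.9 to 305 RPKM.

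Among the remaining P0-low genes named by size, Slc12a4, a potassium chloride cotransporter, read 5.43, 5.3 and 6.09 RPKM at E17.5, 3.16, 3.26 and 3.47 at P0 and 5.55, 5.45 and 4.81 at P9. Pnp, which splits purine nucleosides, read 7.03, 7.12 and 7.02 RPKM at E17.5, 4.63, 5.35 and 3.93 at P0 and 11.3, 10.5 and 9.38 at P9, and Chst11, a chondroitin sulphotransferase, read 12.1, 15.1 and 14.6 RPKM at E17.5, 9.87, 9.86 and 8.67 at P0 and 15.5, 15 and 16.2 at P9. Smc1a, a subunit of cohesin, read 32.5, 34 and 31.9 RPKM at E17.5, 24, 23.6 and 20.6 at P0 and 32.4, 32 and 28.3 at P9. All 4 had P0 below every other library, and by limma their adjusted p ran from 0.000268 to 0.00178. Exons of Slc12a4 and Pnp overlap those of other annotated genes, as do exons of Car9, Ccnjl, Id4 and Gfi1. The same holds for other genes described here, among them Dll1, Fbn1, Hspa1a, Cib2, Tmie, Jun, Fgf10, Eln, Hspd1, Tpi1, Dusp1 and Ppp1r15a. Whether the authors counted by strand is not given in the sources used here.

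**Figure D5:**
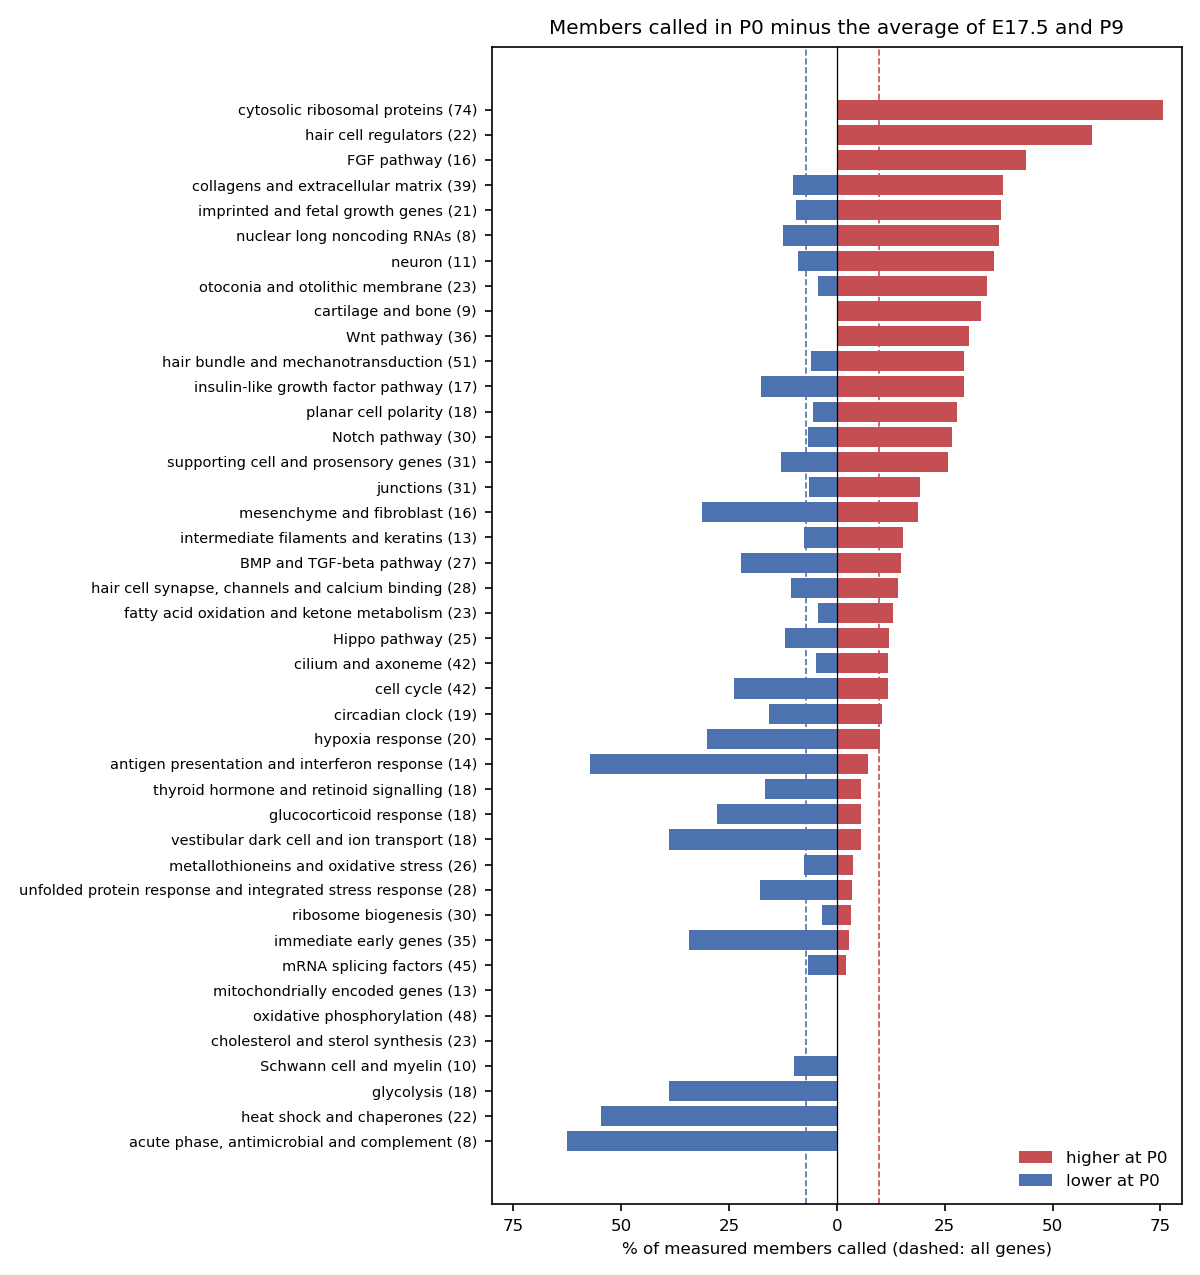
For each list with at least 8 measured genes (number in brackets), the percent called higher at P0 (right, red) and lower (left, blue) in P0 minus the average of the other ages. Dashed lines mark the same over all genes, 9.74% and 7.22%; hair cell regulators reach 13 of 22 higher and glycolysis 7 of 18 lower.

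The contrast must be read beside the single ages. Ribosomal protein genes had the highest share called, 56 of 74 higher (9.74% over all genes). Only Rplp1 was P0-high (1445, 1265 and 1194 RPKM at E17.5, 1462, 1871 and 1635 at P0 and 1109.8, 884 and 927 at P9). The median log2 difference of the list was -0.07 for P0 minus E17.5 and 0.99 for P0 minus P9. Without P0 replicate 2, 33 of the 74 were called. Cell cycle genes had a median log2 difference of -1.46 for P0 minus E17.5 and 1.13 for P0 minus P9. Of 42, 5 were called higher and 10 lower in the contrast (9.74% and 7.22% over all genes), with 0 outside both ages. Those counts moved with the setting: the 10 lower became 1 without P0 replicate 3, 5 to 7 without any other E17.5 or P0 library, 0 with a mean of at least 10 RPKM and 28 with a pseudocount of 5. The 5 higher became 2 without E17.5 replicate 2, E17.5 replicate 3, P0 replicate 1 or P0 replicate 2, and 3 without E17.5 replicate 1, P0 replicate 3 or P9 replicate 1. Antigen presentation genes (8 of 14 lower) and acute phase genes (5 of 8 lower) had none outside, and 12 and 8 of them were called lower at P0 than at P9. Over all genes, 7.22% were called lower in the contrast and 23% lower at P0 than at P9. The 5 acute phase genes became 3 without P0 replicate 3 and 1 with a mean of at least 10 RPKM, and the 8 antigen presentation genes became 3 with that mean.

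The genes that peaked or dipped at birth were mostly not called between the other 2 ages. Of the 317 genes above, 201 (63.4%) were not called between E17.5 and P9 by limma, and of the 204 below, 138 (67.6%) were not, against 32.6% of all genes. The rule favours such genes, because a wide gap between E17.5 and P9 leaves less room outside it. Where the 2 ages did differ, P9 was lower than E17.5 for 90 of the genes above and higher for 26, and for the genes below it was higher for 59 and lower for 7. Over all genes, 30.8% were called higher and 36.5% lower at P9 than at E17.5. In the authors' deposited table of E17.5 against P9, 11 of the 317 genes (3.47%) and 9 of the 204 (4.41%) appear, against 19.4% of all genes.

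Genes with all P0 libraries above or below all others, called or not, also differed in median length and base composition, a difference that was not tested. The longest transcript had a median of 3169 bases for the 317 genes above and 4454 for the 204 below, against 3476 for all genes with a match, and a median GC content of 52.2%, 49.1% and 50.1%. Across the 9156 matched genes, the log2 difference had a Pearson correlation of 0.08 with GC content and of -0.10 with the log10 of length, as a description only. The part of length and base composition in the results above was not tested.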

How the data were processed

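The deposited table holds RPKM values computed by the authors for 9 libraries. Per the submitters' processing notes, the build was mm8 and the software Partek, with no version. Its aligner, annotation and counting rule are not stated in any source used here. No gene of the 10102 stayed under 5 RPKM in every library. A gene that reached 5 RPKM only at P0 is among them because of its P0 level. The authors' deposited table of E17.5 against P9 lists ratio, score and p-value for 1967 genes, of which 1963 were matched and counted by name only. Here limma 3.58.1 under R 4.3.3 fitted age means to log2(RPKM + 1) over the 9 libraries (trended empirical Bayes, Benjamini-Hochberg adjustment), and genes were called at an adjusted p under 0.05. An exact permutation test of 3 against 3 cannot go below 0.1. Promoter windows (RefSeq, GRCm38.p6) and transcripts (GENCODE vM21) were joined by symbol. The fit was tested on simulated data. Members and the 48 gene lists were chosen with earlier results of these data known. Named genes are the 15 P0-high and 15 P0-low genes called against both ages, at 5 RPKM or more on the higher side, with the largest smaller log2 difference, plus, per list, up to 4 genes of smallest p; predicted or clone symbols were skipped. A gene that the rule names is not reported here. Other genes are named to complete a list and were chosen after their values were seen. The labels give no batch, so no block was used in the main fit, and whether replicate numbers pair the libraries is not known.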

Additional observations from a re-analysis of the deposited data

How the results depend on the processing

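In all, 18 alternatives were run: other pseudocounts, a mean of at least 10 RPKM, other scalings, fits without trend or with array weights, a replicate block and leaving out each library. With a mean of at least 10 RPKM, which tests fewer genes, 643 genes were higher and 414 lower, 158 were P0-high and 90 P0-low, and 99 and 46 were called against each age. Array weights gave 1645 higher and 1454 lower, and 346 and 248 against each age. Quantile normalization gave 219 P0-low genes and 108 lower than each age. The cause of these 2 shifts was not tested. Leaving out 1 library gave 582 to 1069 genes higher, 396 to 826 lower, 96 to 165 higher than each age and 35 to 98 lower than each age, 194 to 310 P0-high and 96 to 203 P0-low. Same-numbered libraries had correlations of deviations from -0.37 to 0.27 and others from -0.32 to 0.32. Deviations from the mean of 3 libraries are tied to each other, so these values cannot decide whether the numbers mark a pairing. With the replicate block, 976 genes were higher and 689 lower, 241 were P0-high and 128 P0-low, and 157 and 67 were called against each age. Of 30 named P0-high and P0-low genes, all but Hspa5 were called under every alternative that kept them. Over 226 followed genes, 3761 of 4008 recomputed values kept their direction and call, 169 lost the call, 77 gained it and 1 reversed: Dlk1 with a pseudocount of 5, at -0.080 (adjusted p by limma = 0.594). Depth per gene cannot be computed from RPKM without the authors' gene lengths, and genes under 5 RPKM in all libraries were not analysed here.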

Other observations

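A pair of RNA-binding genes known for induction by cold differed in pattern at birth. Cirbp read 61, 51.2 and 61.7 RPKM at E17.5, 76.2, 92 and 90.2 at P0 and 53.5, 62.5 and 40.3 at P9, with all P0 libraries above the others and an adjusted p by limma of 0.0141 against E17.5 and 0.00147 against P9. Rbm3 read 139, 114 and 125 RPKM at E17.5, 109, 138 and 127 at P0 and 84, 90.5 and 57 at P9, with E17.5 and P0 overlapping and P9 lower. The clock genes Arntl and Hlf were P0-high. Arntl, the BMAL1 partner of CLOCK, read 13.4, 12.4 and 11.4 RPKM at E17.5, 17.5, 16.8 and 19.5 at P0 and 15.8, 13.9 and 13.9 at P9, and Hlf, a clock output factor, read 4.34, 3.05 and 3.84 RPKM at E17.5, 4.88, 4.7 and 5.22 at P0 and 2.81, 3.66 and 3.03 at P9. Hlf lost its call without P0 replicate 1 or P0 replicate 3 (limma adjusted p up to 0.0884). It reached 5 RPKM, the floor for measured genes, in P0 replicate 3 alone, so its inclusion rests on P0. Of 19 clock genes measured, 2 were called higher, about the share of all genes (9.74%), and 3 lower (7.22% over all genes). The hour of collection is not given in the sources used here. Gpr37, a receptor known from glia, read 21.9, 21.6 and 21 RPKM at E17.5, 35, 37.4 and 35.5 at P0 and 20.4, 21.6 and 25.6 at P9, apart from both other ages. Fam107a, a glucocorticoid-responsive actin regulator, read 123, 111 and 104 RPKM at E17.5, 148, 170.0 and 156 at P0 and 146, 129 and 140.1 at P9, and lost its call without E17.5 replicate 2, P0 replicate 2 or P0 replicate 3 (up to 0.066). Of 18 measured glucocorticoid response genes, Fam107a was the 1 called higher and 5 were called lower (9.74% and 7.22% over all genes). Against E17.5 alone 5 of the 18 were called higher and 3 lower (15.4% and 13.5% over all genes), and against P9 alone 2 and 10 (28.5% and 23%). All genes named under this heading were chosen after their values were seen, apart from Arntl.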
